A study of Homo sapiens with 12 samples.

Results

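The 10 genes described here belong to the vesicular proton pump and to the DMXL proteins that regulate it, and are given with their N4-acetylcytidine (ac4C) peaks. They are DMXL1, DMXL2, WDR7, ATP6V0A1, ATP6V0A2, ATP6V0C, ATP6V1A, ATP6V1B2, ATP6V1H and ATP6AP1. These are 10 of 20050 protein-coding genes in the RefSeq annotation, and 10915 of those had a peak in either list. Each peak that overlapped the span of a gene by 1 bp or more was counted. The group was chosen from earlier results of these peak lists around DMXL2, which had 17 control peaks, a highest score of 257.6 and 0 knockdown peaks. For that reason the peak numbers of the genes in each list are a description, and no test is drawn from them.

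The study compared RBE cells, a human intrahepatic cholangiocarcinoma line, carrying a control hairpin (sh-NC) with RBE cells carrying a lentiviral hairpin against NAT10 (sh-NAT10), the enzyme that acetylates cytidine in RNA. The protocol describes the NAT10 virus alone, followed by puromycin and expansion of resistant colonies, and leaves the number of colonies unstated. Fragmented RNA was pulled down with an antibody to ac4C, and pulled-down and input RNA were sequenced in 3 replicates per group and 12 libraries in all. The labels name polyA RNA as the molecule, whereas the protocol names total RNA. The authors deposited 1 list of peaks per arm, with 34365 control peaks and 28047 knockdown peaks, so the spread between replicates is unknown and read depth is unknown. The list taken as the knockdown list was assigned by elimination, since the name of the other fits the control titles alone. The lists hold no RNA level, so the knockdown of NAT10 itself could not be checked. A lower number of peaks cannot be told apart from less RNA of that gene. Biliary markers had peaks on 8 of 10 genes in both lists, 45 and 46 peaks in all, with KRT7 and KRT19 among them, and EPCAM at 0 in both.

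The vesicular proton pump, or V-ATPase, acidifies lysosomes, endosomes and secretory vesicles. Its cytosolic V1 sector breaks down ATP, and its membrane V0 sector carries protons across the membrane. The pump is switched by assembly and release of V1, and the DMXL proteins, with WDR7 and ROGDI, form the mammalian counterpart of the yeast RAVE complex that helps V1 join V0. Acidified lysosomes in turn are the platform on which the mTORC1 kinase senses amino acids.

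With the group chosen around DMXL2, a difference in peak numbers between the regulators and the pump is partly built in. DMXL1, DMXL2 and WDR7 had 30 control peaks and 3 knockdown peaks. The 7 pump genes (6 subunits and the accessory protein ATP6AP1) had 21 control peaks and 23 knockdown peaks. The net drop from 51 to 26 peaks over the 10 genes lay mainly on DMXL2 (17 to 0) and DMXL1 (11 to 2). WDR7 went from 2 to 1. Among the 10 genes, 5 had fewer knockdown than control peaks, 3 had more and 2 had equal numbers. Over all protein-coding genes with a peak in either list, 46.1% had fewer and 33.3% had more, so these counts lie near the background. Of the 10 genes with a control peak, 1 (DMXL2) had no knockdown peak, against 26.3% of 9449 protein-coding genes, and 0 of 9 genes with a knockdown peak lacked a control peak, against 17.4% of 8429. A drop of at least 9 peaks, a size set after the values were seen, was found for DMXL1 and DMXL2 and for 2.01% of protein-coding genes with a control peak. That base includes genes with fewer than 9 control peaks, which cannot show such a drop. Since the genes were chosen on this contrast, nothing is read from these counts.

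**Figure D1:**
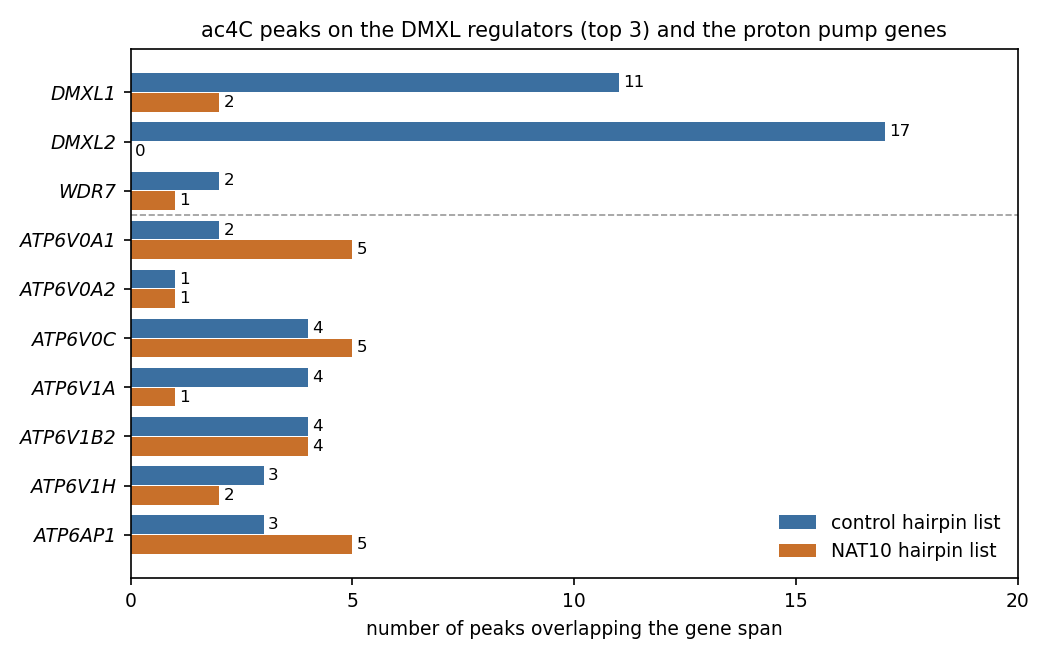
Number of peaks that overlap the span of each gene, in the control hairpin list (blue) and the NAT10 hairpin list (orange); there is 1 list per arm, so no error is shown. DMXL1 goes from 11 to 2 and DMXL2 from 17 to 0, while the pump genes lie between 1 and 5 in both lists.

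DMXL2 (chr15:51447791-51622771, hg38, minus strand) encodes the larger scaffold of the regulator complex, rabconnectin-3 alpha, found on synaptic vesicles. The middles of its 17 control peaks lay from 48.29% to 99.22% of the gene, counted from its start, and none of the peaks overlapped another annotated gene. The 14 peaks on the strand of the gene had scores from 10.55 to 24.13. The highest of these was a 250 bp peak, chr15:51480751-51481000, which ranked 2787 among the 34365 control peaks. The other 13 lay between 10.55 and 15.70. The highest score of the gene, 257.6, thus does not belong to its own strand.

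On the plus strand, opposite to the gene, lay 3 control peaks of DMXL2. The widest, chr15:51466511-51498773, spans 32263 bp, carries the score of 257.6 and ranks 81 in the control list. A 35 bp peak, chr15:51498799-51498833, with a score of 13.27 lies just past its end. That small peak falls inside a 1000 bp peak on the minus strand, chr15:51498769-51499768, with a score of 12.03, so that both strands carry a peak at the same place. The remaining one, chr15:51456118-51456217, has a score of 9.51, below 10. For comparison, control peaks were taken that overlap exactly 1 annotated gene of any kind, where that gene is protein-coding and of known strand. Of these 20236 peaks, 2.48% lay on the opposite strand. The other 9 genes had 0 such peaks in both lists. For ATP6V1A, ATP6V1B2 and ATP6V1H the gene strand was itself taken from most of their peaks, so their 0 carries no information on strand. Without the 3 opposite-strand peaks, 14 control peaks and 0 knockdown peaks were left on DMXL2. No source used here says how strand was handled in peak calling, and the wide peak is written as 1 block, so the RNA it stands for is not settled.

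Many DMXL2 peaks are neighbouring pieces. Near the middle of the gene, 4 peaks lie between chr15:51535694 and 51538302, with scores of 15.70, 10.55, 15.67 and 10.95 and widths of 731, 700, 553 and 50 bp. Further along, 4 peaks lie between 51476698 and 51486074, the highest-scoring peak of the gene strand among them. All 4 fall inside the 32263 bp peak on the opposite strand. Joining peaks of the same strand within 200 bp left 12 control regions on DMXL2. The number of peaks therefore overstates the number of separate sites. The count of 0 knockdown peaks cannot be changed by settings that only drop or merge peaks, so nothing is read from its staying at 0. The nearest knockdown peak outside the gene was 288311 bp away, and the nearest control peak 59046 bp away.

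DMXL1 (chr5:119071027-119249127, plus strand) encodes the paralog of DMXL2. It had 11 control peaks with scores from 10.53 to 12.96, all on the strand of the gene, and 2 knockdown peaks with scores of 10.19 and 11.90. None of its peaks reached a score of 20. The control peaks started at 62734 bp from the gene start and ended close to the gene end, in a 2718 bp peak at 98.16% of the span. Side by side lay 4 of them, between 119148810 and 119152016.

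The shared site on DMXL1 was narrow. The control peak chr5:119171846-119171945 (100 bp, score 11.21) and the knockdown peak chr5:119171846-119171920 (75 bp, score 10.19) begin at the same base. The other knockdown peak, chr5:119146937-119147278, is 342 bp wide, overlaps no control peak and lies upstream of the group of 4 control peaks. Thus 1 of the 11 control peaks had a counterpart.

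WDR7 (chr18:56651359-57036606, plus strand), the rabconnectin-3 beta partner of the DMXL proteins, has the longest span of the 10 genes, 385248 bp, and few peaks. Its 2 control peaks were narrow, chr18:56696383-56696432 (50 bp, score 10.30) and chr18:56756601-56756875 (275 bp, score 12.32). Its single knockdown peak, chr18:56924000-56935803, is 11804 bp wide with a score of 11.38. The control peaks sit at 11.69% and 27.35% of the gene and the knockdown peak at 72.3%, so no position was common to the lists. A long gene span alone thus went with few peaks here and with many on DMXL2 (174981 bp) and DMXL1 (178101 bp).

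**Figure D2:**
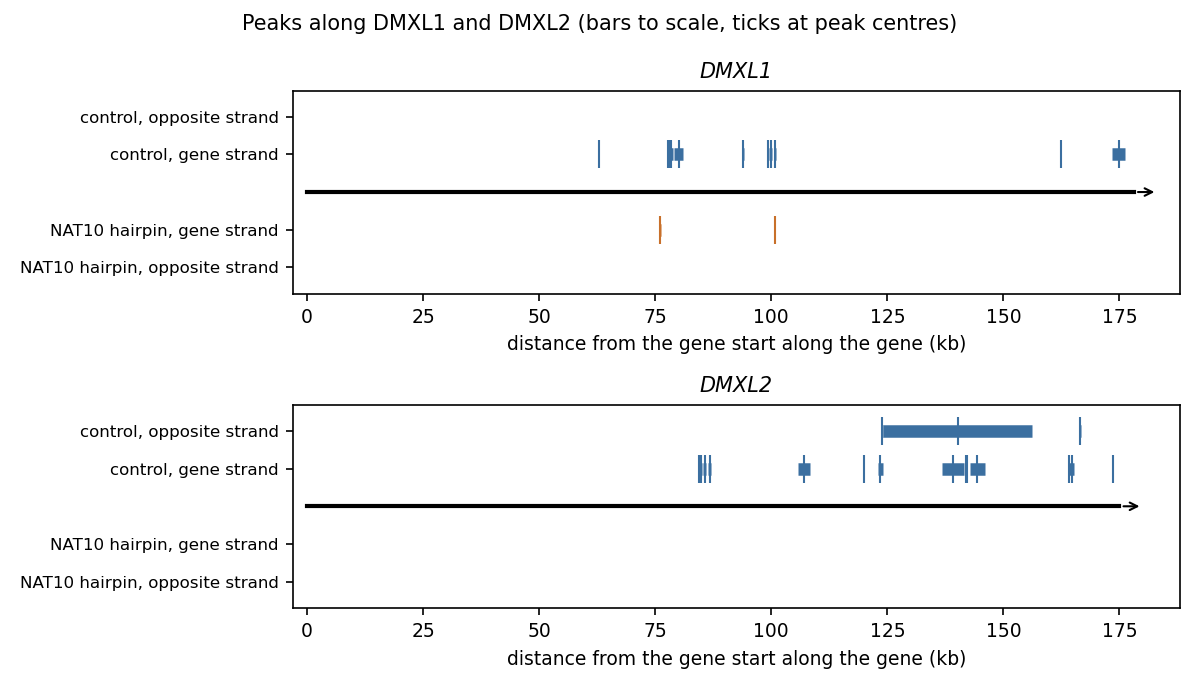
Peaks along DMXL1 and DMXL2, drawn as bars to scale over the distance from the gene start in kb, with a tick at each centre; control hairpin peaks are above the gene line and NAT10 hairpin peaks below it, on the strand of the gene or opposite to it. On DMXL2 the 17 control peaks fill the later part of the gene and the 3 on the opposite strand include the 32263 bp span, and the space below the line is empty.

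Peaks were also compared by position between the lists. Of the 51 control peaks on the 10 genes, 10 met a same-strand knockdown peak (19.6%, 95% Wilson interval 11 to 32.5). Among the pump genes this was 9 of 21 (42.9%, 24.5 to 63.5). Among the regulators it was 1 of 30. The 17 peaks of DMXL2 could meet none, because the gene was chosen for having 0 knockdown peaks. They count in both the 30 and the 51, so nothing is read from either share. In the whole control list 45.5% (44.9 to 46) met a same-strand knockdown peak. The intervals cover counting error only and treat peaks as independent, although peaks of a gene share their RNA.

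In the V0 sector, ATP6V0A1 and ATP6V0A2 encode isoforms of subunit a, which forms the path of the protons and directs the pump to particular membranes. ATP6V0A1 (chr17:42458878-42522579, plus strand), the isoform abundant in neurons, had 2 control and 5 knockdown peaks. Both control peaks were broad and near the gene start, chr17:42460999-42466440 (5442 bp, score 10.36) and chr17:42468093-42470224 (2132 bp, score 17.82). The 5 knockdown peaks were at most 424 bp wide and lay from 56.91% to 98.27% of the gene. The lists therefore shared no position on this gene, with control peaks at its beginning and knockdown peaks in its later part.

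The knockdown peaks of ATP6V0A1 included 25 bp peaks at 42521417 and 42521467 near the gene end, with scores of 10.49 and 10.02, and a 75 bp peak at 42495093 with a score of 10.38. The highest score was 13.48, on the 150 bp peak chr17:42514288-42514437. It lies inside a 424 bp peak, chr17:42514137-42514560, whose score is 0.747. Both overlap MIR5010, a microRNA gene within the span of ATP6V0A1 on the same strand, so their assignment to either gene is uncertain. The control list had 0 peaks on this hairpin. The hairpins of MIR548AT, also within ATP6V0A1, and of MIR5706, within DMXL1, had 0 peaks in both lists.

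The MIR5010 hairpin (chr17:42514188-42514307, plus strand, RefSeq, GRCh38.p14) is shown because it is the annotated RNA under knockdown peaks alone. Its 120 bases lie inside the 424 bp peak in full, and the narrower peak covers its last 20 bases, given in capitals. In both mature microRNAs the capitals mark the seed, bases 2 to 8.
MIR5010 hairpin: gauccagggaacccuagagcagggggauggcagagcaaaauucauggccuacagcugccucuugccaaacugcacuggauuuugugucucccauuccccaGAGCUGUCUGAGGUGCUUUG
hsa-miR-5010-5p: aGGGGGAUggcagagcaaaauu
hsa-miR-5010-3p: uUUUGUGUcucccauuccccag

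The hairpin holds 32 cytidines, 3 of them in the part under the narrower peak. The spacing CNNCNNCNN, a repeat of C followed by any 2 bases that has been described at ac4C sites, was searched on the strand of the RNA. It starts at 3 places in the hairpin and at 0 places within its last 20 bases. Of 1562 human hairpins, whose median length is 80 bases, 57.9% hold it at least once, so it does not set this hairpin apart. The mature 3p microRNA ends at 42514288, the first base of the narrower peak. That peak thus begins where the mature microRNA ends and runs on into ATP6V0A1.

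ATP6V0A2 (chr12:123712353-123761755, plus strand), the isoform of subunit a known from the Golgi, had the same peak in both lists. The peak chr12:123743852-123744216 is 365 bp wide, with scores of 12.19 (control) and 10.70 (knockdown). These values rank at percentile 50.4 of the control list and 17.46 of the knockdown list. Across the lists 5609 peaks had identical coordinates and strand, 16.3% of the control list and 20% of the knockdown list. On the 10 genes there were 2 such peaks, this one and a wide span on ATP6V0C.

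ATP6V0C (chr16:2513726-2520218, plus strand) encodes the proteolipid subunit c, many copies of which form the rotating ring of V0. It had 4 control and 5 knockdown peaks, and each of them overlapped a peak of the other list. Its peaks were of 2 kinds. Narrow peaks near the gene end were chr16:2519217-2519730 (514 bp, score 15.37) and chr16:2519756-2519855 (100 bp, 14.31) in the control list. The knockdown list had chr16:2519242-2519655 (414 bp, 17.51), chr16:2519681-2519730 (50 bp, 11.11) and chr16:2519756-2519930 (175 bp, 13.93). The control peak of 514 bp thus stood against a pair of shorter knockdown peaks over the same stretch, so the difference of 1 in peak number is a difference in how the stretch was divided.

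The other kind was wide, with scores at the bottom of the lists. A 21910 bp span, chr16:2497107-2519016, with a score of 0 was identical in both lists and reaches from TBC1D24, the gene upstream, into ATP6V0C. Of its width 24.15% lies in ATP6V0C. Another span ran from ATP6V0C into AMDHD2, chr16:2514077-2527707 in the control list (13631 bp, score 0.500) and chr16:2514027-2527707 in the knockdown list (13681 bp, score 0). Merging overlapping peaks joined everything on ATP6V0C into 1 region in both lists. These wide spans were the only peaks that lay partly outside the gene they were counted for. Just outside, the nearest peaks were 1023 bp from ATP6V1A in both lists, with scores of 21.36 and 44.99.

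The span from TBC1D24 covers the start of ATP6V0C, and it was the only peak over the start region of any of the 7 genes listed in the promoter table (RefSeq, GRCh38.p14, windows of 250 bases before to 50 after the start). The 250 bases before the ATP6V0C start (chr16:2513476-2513725, plus strand) are therefore shown, with GC boxes, GGGCGG or its reverse complement CCGCCC, in capitals.
ATP6V0C upstream: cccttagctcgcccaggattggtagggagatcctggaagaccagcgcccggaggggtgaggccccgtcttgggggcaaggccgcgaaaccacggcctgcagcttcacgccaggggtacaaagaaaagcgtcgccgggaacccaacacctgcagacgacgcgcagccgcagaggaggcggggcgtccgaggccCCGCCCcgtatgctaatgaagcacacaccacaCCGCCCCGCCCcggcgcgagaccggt

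This stretch has 68.8% G and C and 3 GC boxes, 2 of them overlapping. A GC box was present in each of the 10 windows of the 7 genes, and in 45% of 35116 windows in the whole table. The E box CACGTG, the core of the element bound by the lysosomal regulator TFEB, was in 0 of the 10 windows and in 7.26% of all windows. The 3 genes without an entry are ATP6V1A, ATP6V1B2 and ATP6V1H. The motif matches describe these letters only.

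In the V1 sector, ATP6V1A and ATP6V1B2 encode the catalytic subunit A and its partner B, which alternate in the ring that breaks down ATP. ATP6V1A (chr3:113747035-113812056, peaks on the plus strand) had 4 control peaks and 1 knockdown peak. The control peaks were chr3:113788751-113788850 (100 bp, score 13.45), chr3:113789832-113794887 (5056 bp, 16.07), chr3:113803590-113803614 (25 bp, 11.69) and chr3:113805516-113809599 (4084 bp, 24.54). The knockdown peak, chr3:113795183-113798256, is 3074 bp wide with a score of 25.09. It begins shortly after the 5056 bp control peak ends and overlaps none of them. The highest score of the gene in each list was thus above 20, at percentile 92.15 of the control list and 90.46 of the knockdown list, at different places.

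ATP6V1B2 (chromosome 8, 20197381 to 20221696, peaks on the plus strand) had 4 peaks in each list. A site at 20209440 to 20210428 in the control list (989 bp, score 15.50) overlapped a knockdown peak at 20209490 to 20210582 (1093 bp, 11.28). A 2230 bp control peak from 20218182 to 20220411 (score 11.14) met a 928 bp knockdown peak from 20217304 to 20218231 (13.10) at its edge. The remaining control peaks were 311 bp from 20211413 (12.22) and 100 bp from 20216404 (17.39), and the remaining knockdown peaks 150 bp from 20214829 (17.67) and 25 bp from 20217254 (11.38). Equal numbers thus went with a common position for 2 of 4 peaks. Requiring 50% of the shorter peak for overlap left 9 in place of 10 shared control peaks over the 10 genes.

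ATP6V1H (chromosome 8, 53715543 to 53843245, peaks on the minus strand) encodes subunit H, which keeps released V1 from wasting ATP. Its 3 control peaks were 25, 25 and 100 bp wide, from 53795780, 53814683 and 53832976, with scores of 11.15, 10.31 and 11.15. Its 2 knockdown peaks were 53739621 to 53743648 (4028 bp, score 24.31) and 25 bp from 53756595 (12.48). The control peaks lay in the first part of the gene, at 8.003% to 37.16% of the span, and the knockdown peaks at 67.84% and 79.57%. At a score of 20 or more, this gene had 0 control peaks and 1 knockdown peak, the reverse order of its total.

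ATP6AP1 (chrX:154428677-154436516, plus strand) encodes Ac45, an accessory protein needed for assembly of V0. It had 3 control and 5 knockdown peaks. The control peaks chrX:154433659-154433683 (25 bp, score 10.30) and chrX:154433709-154434220 (512 bp, 10.13) both fell inside the knockdown peak chrX:154433659-154434270 (612 bp, 10.91). The remaining control peak was 25 bp from 154435121 (10.42). The other knockdown peaks were 546 bp from 154432394 (10.70), 25 bp from 154435333 (11.80), 251 bp from 154435433 (15.002) and 25 bp from 154435909 (10.71). The gene therefore had a site in both lists, with peak middles at 63.7% to 67.44% of its span. The knockdown peak at 50.89% and those from 85.05% on overlapped no control peak. The control scores, 10.13 to 10.42, lay at percentiles 6.303 to 11.98 of their list.

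**Figure D3:**
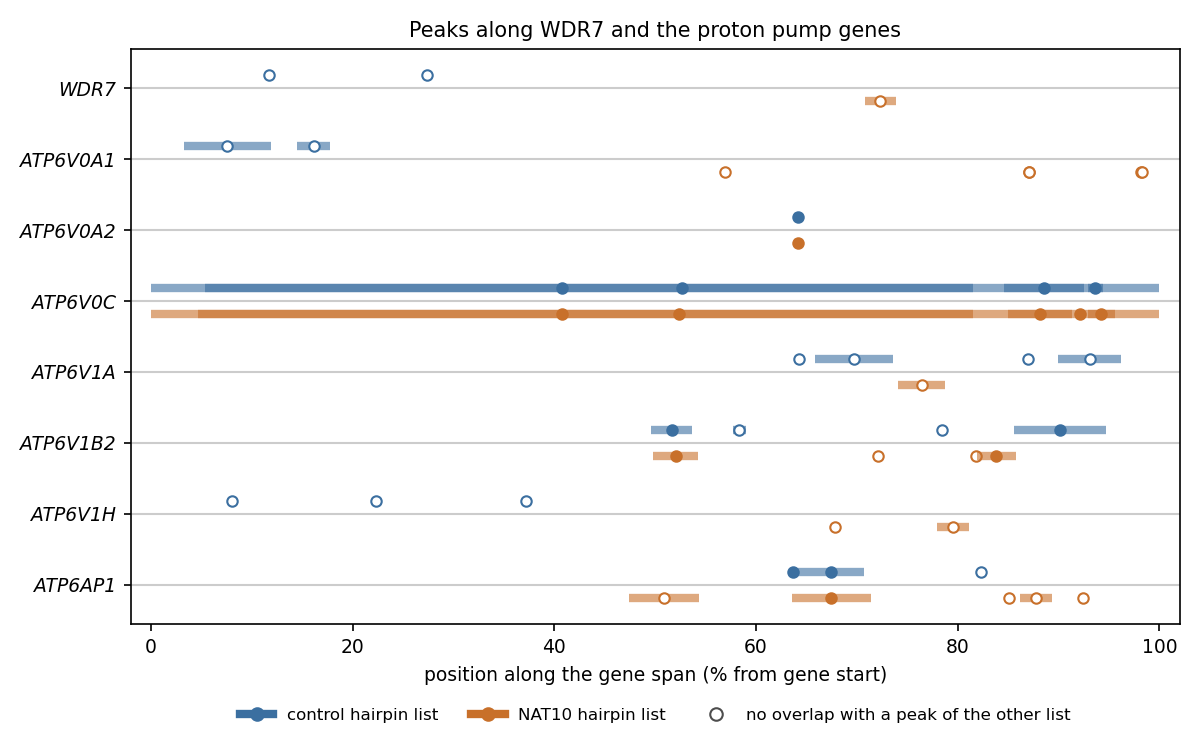
Peaks along WDR7 and the 7 pump genes as percent of the gene span from the gene start; bars show the part of each peak within the gene, circles the middle of that part, and filled circles mark peaks that overlap a peak of the other list on the same strand. On WDR7, ATP6V0A1 and ATP6V1H the control hairpin circles lie at up to 37.16% of the gene and the NAT10 hairpin circles at 56.91% or more.

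On WDR7, ATP6V0A1 and ATP6V1H the control peaks preceded the knockdown peaks along the gene, with no overlap between the ranges. This pattern was picked out after the values were seen, and rests on 7 control and 8 knockdown peaks. On the other 6 genes with peaks in both lists, DMXL1, ATP6V0A2, ATP6V0C, ATP6V1A, ATP6V1B2 and ATP6AP1, the ranges overlapped. Scores of the peaks on the 10 genes mostly lay in the range usual for their list. Of the 51 control peaks 45 had a score of 10 to 20, against 83.2% of the control list, and 3 had 20 or more, against 12.3%. Of the 26 knockdown peaks 21 had 10 to 20, against 80.6%, and 2 had 20 or more, against 14.9%. The 3 high control peaks were 2 on DMXL2 and 1 on ATP6V1A, and the 2 high knockdown peaks were on ATP6V1A and ATP6V1H. Scores are the deposited values, ranked within their own list.

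**Figure D4:**
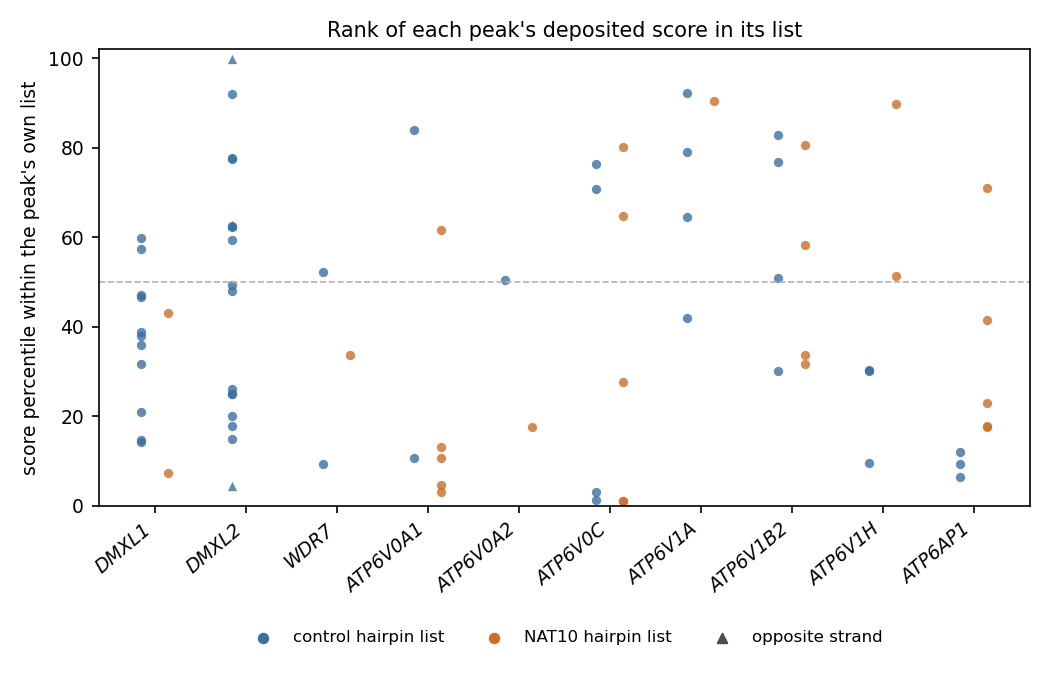
Percentile of each peak's deposited score within its own list (0 lowest, 100 highest) for the 10 genes; circles are peaks on the strand of the gene, triangles peaks opposite to it, and the dashed line is percentile 50. DMXL2 control peaks run from percentile 4.443 to 99.77, both ends on the opposite strand, and DMXL1 control peaks end at percentile 59.88.

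Most genes with about as many control peaks as DMXL2 also had knockdown peaks. There were 107 others with 15 to 19, and their knockdown counts had a median of 10 (interquartile range 3 to 16). Of these, 6 (5.61%) had 0. Those 6 were ARHGAP32 with 16 control peaks, GRIA3 with 18, SLC8A1 with 16, UNC80 with 16, GRIN2A with 15 and MEF2C with 19. GRIA3 and GRIN2A encode glutamate receptor subunits, UNC80 belongs to the sodium leak channel complex of neurons, and SLC8A1 is the sodium and calcium exchanger. The likeness is in 2 numbers per gene, 1 from each list.

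**Figure D5:**
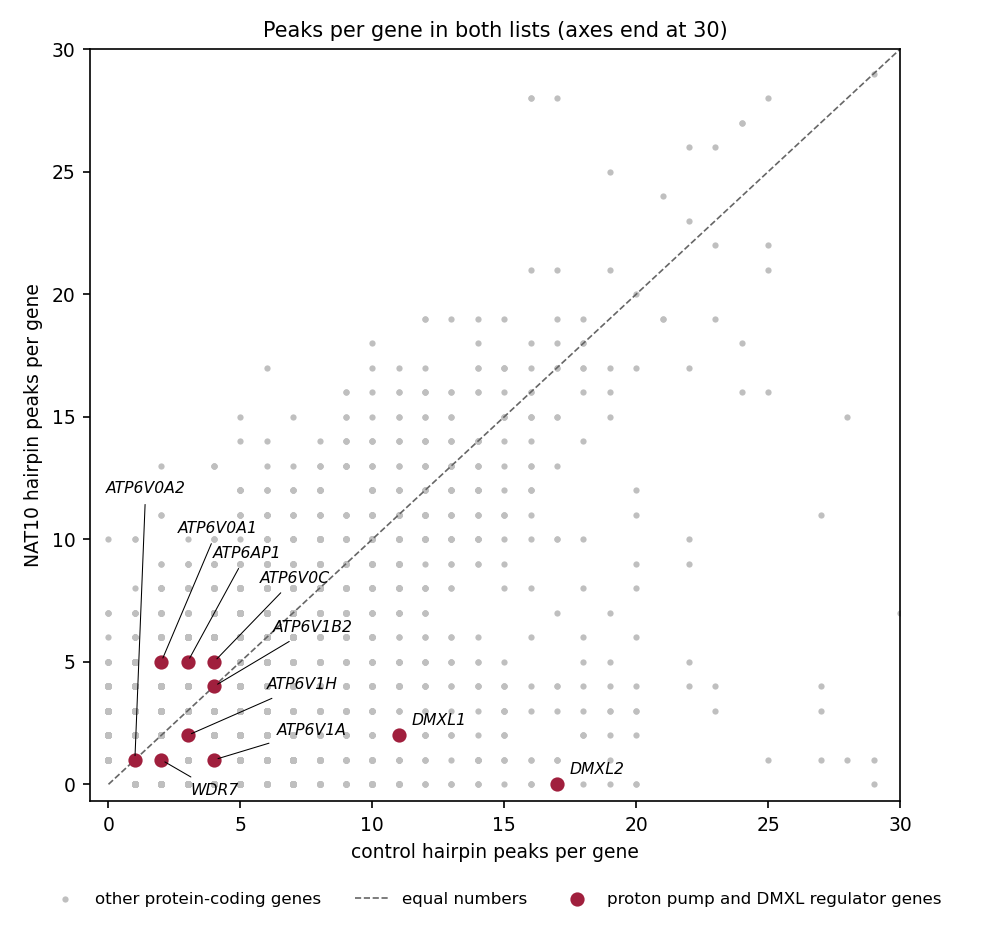
Number of control hairpin peaks (horizontal) against NAT10 hairpin peaks (vertical) for each protein-coding gene with a peak in either list, with the 10 genes in red and a dashed line at equal numbers; axes end at 30. DMXL1 (11 and 2) and DMXL2 (17 and 0) lie far under the line, and the others sit in the dense lower left corner.

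Markers of neurons also had fewer knockdown peaks. Of 15 neuronal markers, peaks were found on 14 in the control list and on 6 in the knockdown list, with 82 and 16 peaks in all. Of the 14 with a peak, 13 had fewer knockdown peaks, against 46.1% of protein-coding genes with a peak in either list. No knockdown peak was found on 8 of the 14, against 26.3% of protein-coding genes with a control peak. MAP2 had 20 and 0, RBFOX3 1 and 0, and SYP 2 and 0, whereas TUBB3 had 5 and 8 and GRIN1 had 0 in both. Astrocyte markers had 16 control peaks and 1 knockdown peak over 6 genes, with GFAP, ALDH1L1 and S100B at 0, and oligodendrocyte markers 17 and 0, with MOG, MOBP and MAG at 0. Hepatocyte markers had 2 peaks in each list, with APOA1, APOB, TTR and CYP3A4 at 0. Macrophage or osteoclast markers, from cells rich in this pump, had 6 in each. In each list CD68 held 5 of them and ACP5 1, with a score of 0 on a peak that also overlaps another gene. CD14, CSF1R, CTSK and OSCAR were at 0. The part of these marker genes in the DMXL2 and DMXL1 result was not tested. Of the 12 protein-coding genes within 500 kb of DMXL2, peaks lay on 10 in the control list (16 peaks) and on 4 in the knockdown list (7 peaks). Of those 10, 6 had no knockdown peak, against 26.3% of all protein-coding genes with a control peak. SCG3 and LYSMD2 went from 2 to 0 and TMOD2 from 4 to 0. AP4E1 had 1 and 3, GNB5 1 and 2, TMOD3 1 in both, and GLDN 0 in both.

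In the rest of the pathway, peaks appeared in 1 list alone about as often as over all genes. Among 50 further genes of the pump, its assembly and the lysosome, 30 had a control peak and 8 of these had no knockdown peak, against 26.3% of all protein-coding genes with a control peak. A knockdown peak lay on 28, of which 6 lacked a control peak, against 17.4%. The remaining V1 subunit genes had 8 control and 8 knockdown peaks over 10 genes, and the remaining V0 and accessory genes 11 and 13 over 10 genes. ROGDI, a small partner of the DMXL complex, and the assembly factor genes VMA12, VMA21 and VMA22 had 0 peaks in both lists.

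Single pump genes went both ways. ATP6V1C1 had 3 control peaks and 0 knockdown peaks, ATP6AP2, the renin receptor, 2 and 0, and ATP6V0B and ATP6V1E2 1 and 0. ATP6V0B stood out by the score of its 1 control peak, 43.46, whereas ATP6AP2 stayed at 10.95 or less. ATP6V1E1, ATP6V1F, ATP6V0A4, ATP6V0E1 and ATP6AP1L, a transcribed pseudogene in RefSeq, had 0 control peaks and 1 knockdown peak each. ATP6V0E2, with the most peaks among the further pump genes, had 6 and 7. ATP6V1D had 1 and 3, all of which also overlap another gene.

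TLDc domain proteins, several of which bind the pump, had 18 control and 6 knockdown peaks over 5 genes. Peaks lay on 3 of these genes, of which 2 had fewer knockdown peaks and 0 had more, against 46.1% and 33.3% over all protein-coding genes with a peak. NCOA7 had 8 and 1, and OXR1 9 and 4, while TBC1D24 had 1 in both, the span shared with ATP6V0C. On OXR1, 2 control and 3 knockdown peaks also overlap another gene. Other lysosomal genes had 61 control and 42 knockdown peaks over 21 genes, of which 18 had a peak in either list. Of these 18, 10 had fewer knockdown peaks and 3 more, against 46.1% and 33.3% over all protein-coding genes with a peak. CLCN3, a chloride and proton exchanger, had 7 and 2, and ATP13A2, a lysosomal polyamine exporter, had 9 and 5. RRAGA, a GTPase that brings mTORC1 to the lysosome, had 4 and 0, and its partner gene LAMTOR2 had 3 and 0. CLCN7, the lysosomal chloride and proton exchanger, had 5 and 8, all in a stretch that other genes overlap. TMEM175 had 1 control peak and 0 knockdown peaks, and SLC9A7 had 0 and 1.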

How the data were processed

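The values are 1 deposited peak list per arm, in 12 columns, of hg38 coordinates with a score per peak. Per the submitters' processing notes, fastp 0.20.1 and Bowtie2 2.4.1 were used. Peak caller, score scale, treatment of inputs and pooling of replicates were not given in the sources used here. Of the control peaks 58.2% and of the knockdown peaks 54.5% have a width that is a multiple of 25 bp. Each peak is 1 block, so a width can include introns.

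Peaks were assigned to gene spans of RefSeq GRCh38.p14 by 1 bp or more, on either strand, and positions are 1-based. The strand of a gene came from the RefSeq promoter table, or, for ATP6V1A, ATP6V1B2 and ATP6V1H, from its peaks. Exons were not analysed here. The overlap code, in Python 3.11.15 with pandas 2.3.3, NumPy 2.4.6 and SciPy 1.17.1, was tested on simulated intervals. Figures used matplotlib 3.10.9. No test was run, as each arm has 1 list.

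All 10 genes are named. Each peak is given for genes with at most 6 in a list, and otherwise the highest, wide, opposite-strand and shared peaks. Of the wider lists, genes with peaks in 1 list alone and up to 4 with the largest difference are named, except 1 that is not reported here. Genes and lists were chosen with earlier results of these data known.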

Additional observations from a re-analysis of the deposited data

How the results depend on the processing

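DMXL2 had 0 knockdown peaks under the main setting, and no other setting could change this, since each only drops or merges deposited peaks. Its control peaks numbered 12 to 17 in 8 of the 9 other settings that change peak counts. The exception was a score of 20 or more, which left 2 DMXL2 control peaks, 3 control and 2 knockdown peaks over the 10 genes, 2 and 0 on the regulators, 1 and 2 on the pump genes, and 0 shared control peaks. With peaks up to 1000 bp, control peaks without a knockdown peak occurred on 3 genes, not 1 (WDR7 and ATP6V1A beside DMXL2), and 6 control peaks were shared in place of 10. Lists of equal length by score and peaks merged within 200 bp, a setting chosen after seeing the data, also left 6 shared, and this merging left 15 knockdown peaks on the pump genes in place of 23 (control 17 in place of 21). The order of knockdown over control peaks on the pump genes, 23 against 21, therefore turned to 15 against 17 there, and became equal at 19 with peaks that overlap no other gene and at 18 with overlapping peaks merged. It widened to 23 against 14 with lists of equal length, where ATP6AP1 had 5 knockdown peaks and 0 control peaks. That setting removes the lowest scores of the control list alone, down to the 28047 peaks of the knockdown list, so it can only lower control counts. With peaks up to 1000 bp the order widened to 18 against 14, where ATP6V0A1 had 5 knockdown peaks and 0 control peaks. On the regulators control peaks outnumbered knockdown peaks under every setting run. Of 162 further values of single genes, 121 stayed within 1.5 times. ATP6V1H reversed its order at a score of 20 or more, with 0 control peaks and 1 knockdown peak. Ties arose for ATP6V1H (2 and 2) and WDR7 (1 and 1) with lists of equal length and for ATP6V0C (1 and 1) under both mergings, and ATP6V1B2 went from 4 and 4 to 4 and 3 with peaks merged within 200 bp. At a score of 20 or more DMXL1, WDR7, ATP6V0A1, ATP6V0A2, ATP6V0C, ATP6V1B2 and ATP6AP1 had no peak left and ATP6V1A had 1 and 1. Depth is unknown, so a missing peak may be a site with too few reads.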
